A study of Mus musculus with 6 samples.

Results

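The 10 genes described here are Nfe2l2, which encodes the transcription factor NRF2, 5 genes widely used as readouts of NRF2 (Nqo1, Gclc, Gclm, Txnrd1 and Srxn1), and 4 secreted or intracellular antioxidant enzymes (Gpx1, Gpx3, Sod2 and Sod3). They were taken by name from the 19937 genes measured, and each had a single probe set carrying its symbol alone. RNA came from whole kidneys, with 3 arrays from littermates named wild-type (genotype labelled normal) and 3 from NICD1 mice (genotype labelled Pax8rtTA TREICNotch1). In the NICD1 mice the transactivator rtTA, driven by Pax8, turns on the intracellular domain of Notch1 in tubule epithelium. The series is about the Notch pathway in renal cancer, and the question put to these mice is how tubular Notch1 activation alters kidney gene expression. The labels held: Notch1 was at 6.45 to 6.65 on control arrays and 9.99 to 10.30 on NICD1 arrays, and its target Heyl at 4.35 to 5.51 and 8.72 to 9.08. Age, sex, inducing agent and duration of induction are not given in the sources used here, nor is whether the controls received the agent. Beyond the name wild-type, it is not stated whether the controls carried a transgene. No label says that arrays of a group came from separate animals, so p-values measure the spread between these arrays, which may be technical. Values are log2 expression after RMA normalization by the authors, differences are NICD1 minus control, and errors are SD over n = 3 arrays unless named.

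NRF2 is held at a low level by KEAP1, which hands it to a ubiquitin ligase for destruction, and oxidants or electrophiles that modify KEAP1 let NRF2 accumulate. It then enters the nucleus, pairs with a small MAF protein and binds antioxidant response elements in genes that make glutathione, reduce thioredoxin and detoxify quinones. Superoxide dismutases turn superoxide into hydrogen peroxide, which catalase, glutathione peroxidases and peroxiredoxins remove. In the kidney, the oxygen-hungry proximal tubule is rich in these enzymes and is the main source of the glutathione peroxidase found in plasma. NRF2 activity is set largely at the protein level, which RNA does not measure.

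The antioxidant response element has the core TGACNNNGC, where N is any base. This core was searched on both strands in RefSeq windows (GRCm38.p6) from 250 bases before to 50 after gene starts, since the element is what links NRF2 to its targets. Windows were found for 8 of the 10 genes (Gclc and Sod3 had no entry), and Txnrd1 had 3 of them. The core was present for Nfe2l2, Srxn1, Gclm and 1 of the 3 Txnrd1 starts, in these stretches read along the gene's own strand, with the core in capitals:
Nfe2l2: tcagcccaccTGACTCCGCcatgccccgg
Srxn1: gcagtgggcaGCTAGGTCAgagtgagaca
Gclm: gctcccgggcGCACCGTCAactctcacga
Txnrd1: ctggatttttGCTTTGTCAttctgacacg
The Nfe2l2 stretch lies at chr2:75704885-75704913 (minus-strand gene), with its core running along the gene from base -240 to base -232 relative to the start. In the other 3, which are plus-strand genes, the core runs on the opposite strand, so the capitals show its reverse complement. The Gclm stretch is at chr3:122245413-122245441 and the Txnrd1 stretch at chr10:82859104-82859132, both upstream of the start. The Srxn1 stretch, at chr2:152105542-152105570, lies just inside the transcribed region. No match was found in the windows of Nqo1, Gpx1, Gpx3 and Sod2, which says only that these letters are not there. The core was found for 4 of 8 members and 5 of 21 other known NRF2 targets, against 3781 of 27025 genes with a window, or 12.4% of 32851 windows. Over all measured genes with a window it was found in 16.8% of those called higher in NICD1, 16.4% of those called lower and 14.5% of those not called. Of the 4 members with a match, Nfe2l2 and Txnrd1 rose, Gclm fell and Srxn1 did not pass, as described next.

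NRF2 message rose in NICD1 kidneys while 5 of the 9 enzyme genes fell. At adjusted p under 0.05 (limma, two-sided, Benjamini-Hochberg over all genes), Nfe2l2 and Txnrd1 rose, Gclm, Gpx1, Gpx3, Sod2 and Sod3 fell, and Nqo1, Gclc and Srxn1 did not pass. Thus 2 of 10 were called higher and 5 of 10 lower, where 17.8% of all genes were called higher and 14.9% lower (32.7% in all). All 5 that fell did so by at least 2-fold, as did 5.30% of all genes, and 1 of the 2 that rose reached 2-fold, as did 4.65% (9.95% in either direction). The median difference was -0.81 log2 over the 10 members and 0.015 over all genes. The 3 NICD1 arrays lay above all controls for 3 members and below them for 5, where 23.7% and 19.7% of all genes did so (43.4% in either direction).

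**Figure D1:**
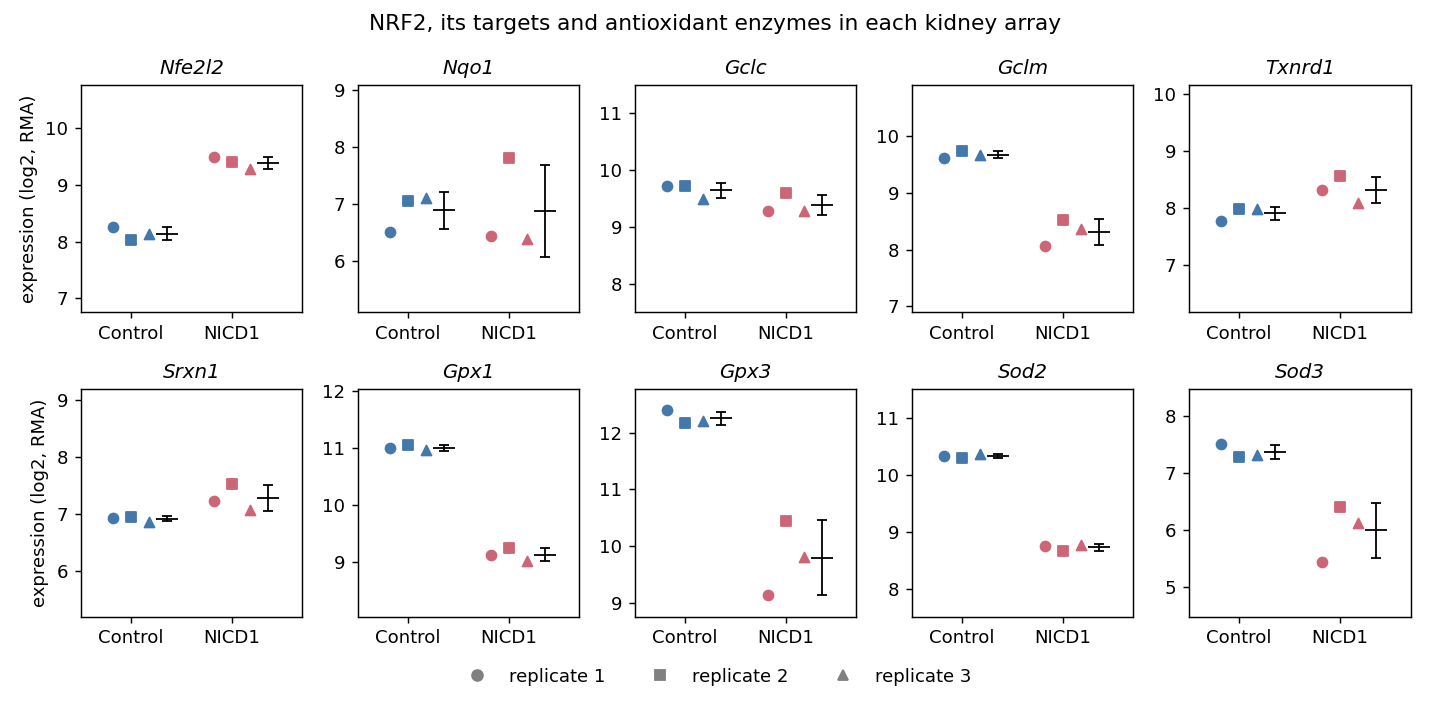
Expression (log2, RMA) of each gene on each array, controls in blue and NICD1 in red, with the marker shape giving the replicate and black bars the mean ± SD (n = 3); every panel spans the same number of log2 units, but levels of different genes are not comparable. Nfe2l2 lies higher in NICD1, Gclm, Gpx1, Gpx3, Sod2 and Sod3 lie lower, and Nqo1 is high only in NICD1 replicate 2.

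Nfe2l2 (probe set 10483809) stood at 8.25, 8.03 and 8.14 in controls and at 9.48, 9.40 and 9.27 in NICD1 replicates 1 to 3. The groups were 1.03 log2 apart at their nearest arrays, against a range of 0.20 within NICD1 and 0.22 within controls. The difference was 1.25 log2 (SE 0.11, 95% confidence interval 1.01 to 1.49), or 2.37-fold, with a limma adjusted p of 2.33e-05. By size it was the 622nd largest rise of 19937 genes. The 3 genes whose values over the 6 arrays followed Nfe2l2 most closely were the collagen gene Col1a1 (Pearson r = 0.9997), the actin-capping protein gene Capg (0.9995) and the acetylcholine receptor subunit gene Chrnb1 (0.9991). With 6 arrays in 2 groups such values mostly restate the group difference, and 220 genes had an r above 0.99.

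Of the 5 NRF2 readout genes, 1 rose, 1 fell and 3 did not pass. Txnrd1 (probe set 10365260) encodes cytosolic thioredoxin reductase, a selenoprotein that keeps thioredoxin reduced. It was at 7.77, 7.97 and 7.98 in controls and 8.31, 8.55 and 8.09 in NICD1, with the groups separated by 0.11 at their nearest arrays. The rise was 0.41 log2 (SE 0.13, 1.33-fold, limma adjusted p = 0.0423). It no longer passed when control replicate 1 (0.34), 2 (0.44) or 3 (0.45) or NICD1 replicate 1 (0.41) or 2 (0.29) was left out, nor after centring each array on its median (0.29). Srxn1 (probe set 10477061) encodes sulfiredoxin, which restores over-oxidised peroxiredoxins. Its controls were at 6.93, 6.94 and 6.86 and its NICD1 arrays at 7.23, 7.52 and 7.06, so the groups did not overlap, but the difference of 0.36 (SE 0.13) missed the threshold (limma adjusted p = 0.0565). It passed as higher without NICD1 replicate 3 (0.47), after quantile normalization (0.39), with array weights (0.46), with the dimmest 40% of genes left out (adjusted p = 0.0421 by limma) and with a trended and robust variance (0.0473).

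Nqo1 (probe set 10581538), the quinone reductase most often used to read NRF2 activity, did not separate the groups. Controls were at 6.50, 7.05 and 7.10, and NICD1 arrays at 6.44, 7.81 and 6.38. NICD1 replicate 2 was thus above every control and the other two NICD1 arrays below every control. The mean difference was -0.01 (SE 0.35, 95% confidence interval -0.79 to 0.77, limma adjusted p = 0.987), an interval too wide to place Nqo1 within 1.5-fold of no change. Without NICD1 replicate 2 the difference was -0.48 (limma adjusted p = 0.0954).

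Glutamate-cysteine ligase, which carries out the rate-limiting step of glutathione synthesis, is made of a catalytic subunit (Gclc) and a modifier subunit (Gclm). Gclm (probe set 10495763) fell from 9.61, 9.73 and 9.66 in controls to 8.06, 8.52 and 8.36 in NICD1, a difference of -1.35 log2 (SE 0.13, 2.55-fold, limma adjusted p = 4.35e-05). No NICD1 array came within 1.09 log2 of a control. Gclc (probe set 10587266) was at 9.72, 9.72 and 9.49 in controls and 9.28, 9.59 and 9.27 in NICD1, with overlapping groups. Its difference of -0.26 (SE 0.13, 95% confidence interval -0.54 to 0.02) did not pass (limma adjusted p = 0.157). It passed as lower after median centring (-0.38) and turned to 0.16, not called, after quantile normalization. Within each array, the Gclm value minus the Gclc value was -0.11, 0.01 and 0.17 in controls and -1.21, -1.08 and -0.92 in NICD1. This shift of -1.09 between the subunits had p = 0.1 in an exact two-sided permutation test, the smallest p that 3 arrays against 3 allow, and 0.3 after adjustment over 3 pairs of members compared.

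**Figure D2:**
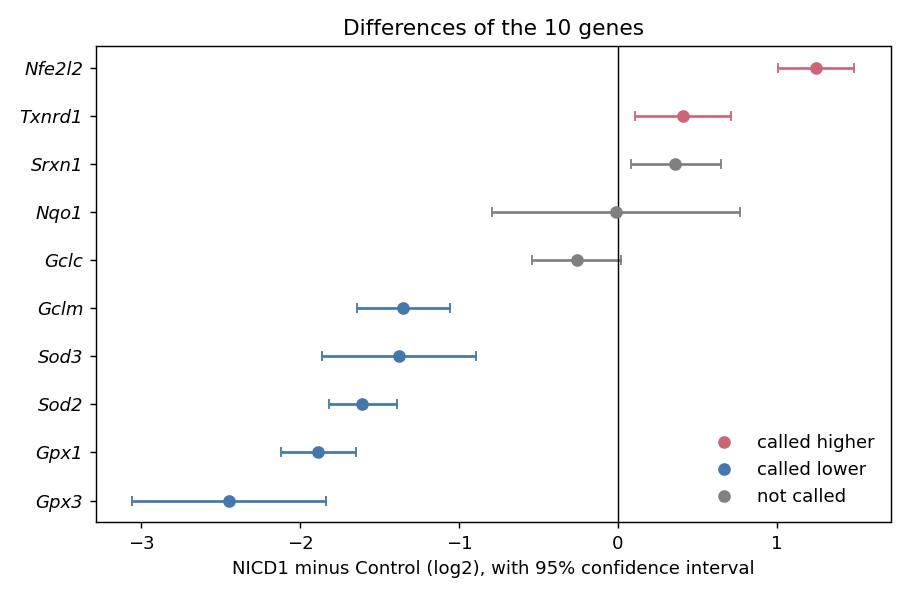
Difference NICD1 minus control (log2) of each gene with its 95% confidence interval from limma; red points were called higher, blue lower and grey not called at adjusted p under 0.05. The interval of Nqo1 reaches from -0.79 to 0.77, and the 5 genes called lower lie between -2.45 and -1.35.

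Both glutathione peroxidases fell. These enzymes use glutathione to reduce peroxides and carry selenocysteine in their active site. Gpx1 (probe set 10588899), the abundant cytosolic and mitochondrial form, went from 11.01, 11.06 and 10.97 in controls to 9.12, 9.25 and 9.02 in NICD1. All 3 NICD1 arrays lay at least 1.72 log2 below the lowest control, and the difference was -1.89 (SE 0.10, 3.70-fold, limma adjusted p = 2.14e-06). Gpx1 has near-identical pseudogene copies, so its value is uncertain to that extent. Gpx3 (probe set 10376201), the secreted form made in the proximal tubule, was at 12.39, 12.17 and 12.20 in controls and at 9.14, 10.45 and 9.81 in NICD1. Its NICD1 arrays were spread over 1.31 log2, against 0.21 in controls, but the nearest still lay 1.72 below the lowest control. The difference of -2.45 log2 (SE 0.27, 5.46-fold, limma adjusted p = 0.000111) was the largest of the 10 genes in either direction and the 214th largest fall of all genes. The genes that followed Gpx3 most closely over the 6 arrays were Adtrp, a hydrolase of fatty acid esters (Pearson r = 0.9991), the respiratory complex I subunit gene Ndufb11 (0.9989) and Hlf, a transcription factor gene of the circadian PAR-bZIP group (0.9983). The Gpx3 value minus the Gpx1 value differed between the groups by -0.56 (exact permutation p = 0.2, adjusted 0.3).

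Both superoxide dismutases fell, with different spread. Sod2 (probe set 10441815), the manganese enzyme of the mitochondrial matrix, was at 10.34, 10.30 and 10.37 in controls and at 8.75, 8.66 and 8.78 in NICD1. Each group was tight, with ranges of 0.07 and 0.11, and the difference was -1.61 log2 (SE 0.09, 3.05-fold, limma adjusted p = 3.13e-06). Sod3 (probe set 10521824), which encodes the secreted enzyme bound to extracellular matrix, was at 7.51, 7.28 and 7.31 in controls. In NICD1 it was at 5.44, 6.41 and 6.12, a range of 0.96, and every array was below the controls. The difference was -1.38 (SE 0.21, 2.60-fold, limma adjusted p = 0.000911). The Sod3 value minus the Sod2 value differed by 0.23 between groups (exact permutation p = 0.6, adjusted 0.6).

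Markers of several kidney cell types also differed between the groups. All 12 proximal tubule markers fell (median -3.87 log2), and their summed level ranged over 14.37 to 14.46 in controls and 10.60 to 11.55 in NICD1 (log2 of the sum of unlogged values). Of 6 thick limb and distal tubule markers, 4 fell and 1 rose (median -2.55 log2, summed level 13.04 to 13.14 against 12.55 to 12.63). That sum is weighted to the brightest marker, Umod, which was the marker that rose (0.32 log2). All 4 intercalated cell markers fell (8.66 to 8.96 against 6.51 to 6.57). Of 4 principal cell markers 2 rose and 2 fell, of 3 podocyte markers 1 rose and 2 fell, and of 5 endothelial markers 3 fell (9.49 to 9.54 against 7.74 to 8.82). Of 9 macrophage markers 8 rose (8.54 to 8.65 against 10.71 to 11.66) and of 9 fibroblast and smooth muscle markers 6 rose (9.99 to 10.32 against 11.22 to 11.95). Of 4 neutrophil markers 1 rose, of 5 lymphocyte markers 2 rose and 1 fell, and the only erythroid marker measured, Alas2, fell by 1.69 log2. Leaving out any single array moved these marker counts by at most 1 gene. The part of these shifts in the members' values was not tested, and in whole kidney fewer cells of a type and less RNA per cell cannot be told apart. The markers of the tissue were present in controls, with Umod at 12.08 and Lrp2 at 11.82.

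The arrays of the NICD1 group ranked partly alike across members. NICD1 replicate 2 held the highest of the 3 NICD1 values for 8 of the 10 genes, the exceptions being Nfe2l2 and Sod2, where 28.2% of all genes had their highest value in that array. NICD1 replicate 3 held the lowest value for 6 of the 10, against 33.8% of all genes. Nqo1 in replicate 2 stood 0.93 log2 above its group mean, Gpx3 0.65 above and Sod3 0.42 above, while Srxn1, Txnrd1, Gclc and Gclm stood 0.20 to 0.25 above. Gpx3, Sod3 and Gclm were lowest in replicate 1, at -0.66, -0.55 and -0.25 from their means. Of the other members called lower, Gpx1 was lowest in replicate 3 (-0.11) and Sod2 in replicate 2 (-0.07). Proximal tubule markers summed to 10.60, 11.38 and 11.55 in replicates 1 to 3, so replicate 1 was lowest there and replicate 3 highest. Replicate 3 held the lowest value of all 9 fibroblast and smooth muscle markers and of 7 of 9 macrophage markers. Among 23 other known NRF2 targets, replicate 2 held the highest value for 12 and replicate 3 the lowest for 12. This ranking of arrays was noticed in the data and is given as a description.

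**Figure D3:**
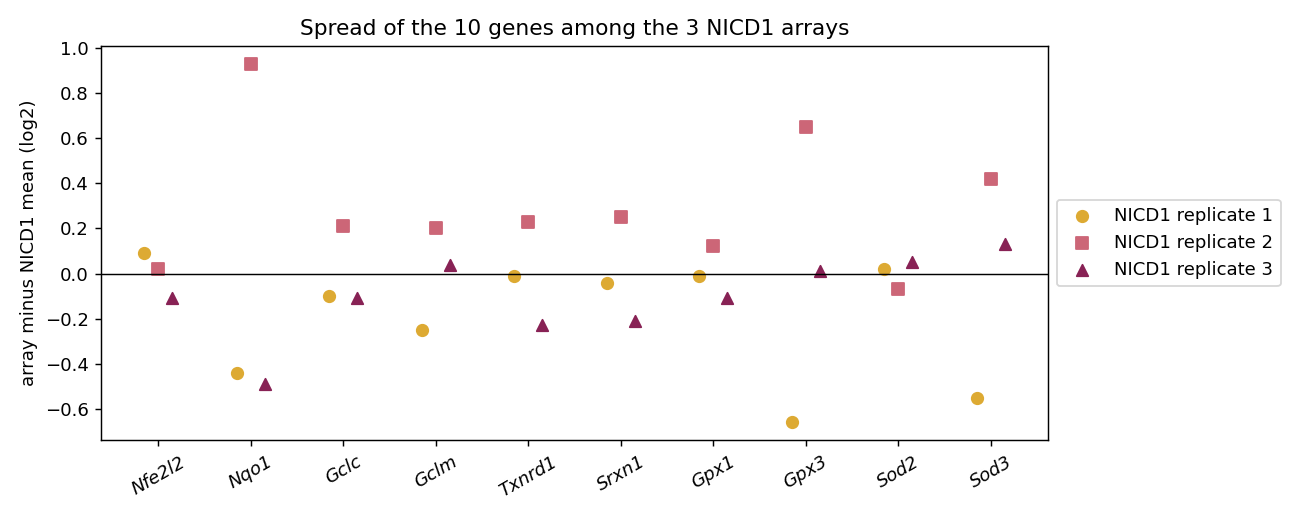
Value of each gene on each of the 3 NICD1 arrays minus the mean of those arrays (log2), with circles, squares and triangles for replicates 1, 2 and 3. Squares are on top for 8 of 10 genes, and the widest spreads are those of Nqo1, Gpx3 and Sod3.

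The wider NRF2 and redox system was read through 8 lists of 136 other genes, of which 128 were measured. Over these lists 29 genes rose, 56 fell and 43 did not pass. Over all genes 17.8% were called higher and 14.9% lower, and the counts of each list are to be read beside these shares. Of 12 genes that control NRF2 or bind the same elements, 3 rose, 3 fell and 6 did not pass (median -0.05), with 5 fallen after median centring. Maff, a small MAF partner, rose from 4.04 ± 0.16 to 5.59 ± 0.12 (1.55 log2), and the NRF2 relatives Nfe2l1 and Nfe2l3 rose by 0.54 and 0.60. Btrc, a substrate receptor in a second route of NRF2 destruction, fell by 0.66. Keap1 was at 6.57 ± 0.05 and 6.56 ± 0.08, a difference of -0.01 (limma adjusted p = 0.967). Its 6 values lay between 6.48 and 6.64, and the groups overlapped.

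Of 23 other known NRF2 targets, 8 rose, 6 fell and 9 did not pass (median -0.03, 0.09 after quantile normalization). Some NRF2 targets, such as Slc7a11, were counted in other lists, so this split and median depend on how genes were divided. The epoxide hydrolase Ephx1 rose from 7.13 ± 0.02 to 9.16 ± 0.25 (2.03 log2) and the export pump Abcc1 from 6.33 ± 0.13 to 7.45 ± 0.06 (1.12). Osgin1, an oxidative stress-induced growth inhibitor, fell by 1.09, and the ferritin light chain gene Ftl1, which has many near-identical copies, by 1.14. Haem oxygenase Hmox1 was at 6.84, 6.31 and 6.17 in controls and 6.31, 6.45 and 6.29 in NICD1, a difference of -0.09 (limma adjusted p = 0.753). The count of risen genes was 5 without control replicate 2, with Cbr3, Akr1b8 and Ptgr1 lost.

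Genes of NADPH supply, which both glutathione and thioredoxin recycling need, also split. Of 9, 3 rose, 5 fell and 1 did not pass (median -0.36, -0.08 after quantile normalization). Malic enzyme Me1 fell from 11.14 ± 0.13 to 8.91 ± 0.22 (-2.24 log2), the mitochondrial transhydrogenase Nnt by 1.09 and transaldolase Taldo1 by 0.66, while transketolase Tkt rose by 0.88. The calls of Pgd and H6pd as higher were lost after median centring and when any control array, NICD1 replicate 1 or NICD1 replicate 2 was left out, leaving Tkt as the only riser. Quantile normalization left 3 fallen genes, with Idh1 at -0.08 and Idh2 at 0.08.

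Of 17 genes of glutathione synthesis and turnover, 2 rose, 11 fell and 4 did not pass (median -0.82 log2, beside 0.015 over all genes). After quantile normalization the median was -0.58, with 3 risen and 9 fallen. The 2 that rose were Slc7a11, described below, and Mgst1 (1.8 log2, limma adjusted p = 0.000318). The brush border peptidases Dpep1 and Anpep, which break down glutathione products outside the cell, fell from 7.84 ± 0.27 to 4.10 ± 0.26 (-3.74) and from 8.98 ± 0.19 to 5.74 ± 0.29 (-3.24). The glutathione transferase Gstk1 fell by 2.48, and glutathione synthetase Gss, the enzyme after glutamate-cysteine ligase, by 0.96. The cystine importer subunit Slc7a11, itself an NRF2 and ATF4 target, went the other way. It was at 3.38, 3.31 and 3.38 in controls and 6.12, 6.42 and 5.46 in NICD1, a rise of 2.64 log2 (SE 0.21, limma adjusted p = 1.48e-05). No detection calls were used here, so whether the control values stand above background is unknown, and the rise may be understated. Its partner subunit Slc3a2 fell by 0.36, a call that was lost when any control array, NICD1 replicate 2 or NICD1 replicate 3 was left out, and that turned to 0.07 after quantile normalization. Glutathione reductase Gsr differed by 0.34 (limma adjusted p = 0.134).

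Of 22 thioredoxin, peroxiredoxin, glutaredoxin and methionine sulfoxide reductase genes, 4 rose, 12 fell and 6 did not pass (median -0.49, -0.26 after quantile normalization, where the call of Prdx2 was lost at -0.18). The mitochondrial peroxiredoxin Prdx3 fell from 9.74 ± 0.02 to 8.58 ± 0.11 (-1.17 log2), cytosolic Prdx1 by 0.97 and the selenoprotein Msrb1 by 1.53. Prdx4, the peroxiredoxin of the endoplasmic reticulum, rose from 6.13 ± 0.05 to 7.02 ± 0.04 (0.89). Thioredoxin itself, Txn1, differed by -0.15 (limma adjusted p = 0.329), beside the rise of 0.41 in its reductase gene Txnrd1.

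Of 9 other dismutase, catalase and glutathione peroxidase genes, 5 fell, 1 rose and 3 did not pass (median -0.63, -0.15 after quantile normalization). Catalase, Cat, fell from 10.83 ± 0.19 to 8.91 ± 0.36 (-1.92 log2), Gpx6 from 8.58 ± 0.28 to 5.47 ± 0.66 (-3.12) and the copper chaperone of Sod1, Ccs, by 1.36. Gpx4, which protects membranes from lipid peroxidation, fell by 0.66, and cytosolic Sod1 by 0.63. Both of these calls were lost after quantile normalization, at -0.27 and -0.15. The gene that rose was Gpx8, a peroxidase of the endoplasmic reticulum (0.84).

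Of 21 genes of selenoprotein synthesis and other selenoproteins, 3 rose, 11 fell and 7 did not pass (median -0.38). The thyroid hormone deiodinase Dio1 fell from 6.33 ± 0.06 to 4.16 ± 0.20 (-2.17 log2) and the selenium carrier Selenop from 10.13 ± 0.13 to 8.36 ± 0.21 (-1.77). Secisbp2l, related to the factor that reads selenocysteine signals in messages, fell by 0.98, and Sepsecs, whose product makes selenocysteine on its transfer RNA, fell by 1.17. Among the members, the selenoprotein genes Gpx1 and Gpx3 fell and Txnrd1 rose by 0.41. Of the 3 risen genes, the calls of Selenoh and Lrp8 were lost after quantile normalization and after median centring, and at least 1 of them when any single array was left out.

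Among 15 genes for enzymes that make oxidants, 5 rose, 3 fell and 7 did not pass (median 0.11, -0.02 after median centring). The renal NADPH oxidase Nox4 fell from 9.91 ± 0.04 to 8.07 ± 0.12 (-1.84 log2), and its membrane partner Cyba by 1.28. The phagocyte oxidase genes Cybb and Ncf1 rose, by 2.31 and 0.93. Cybb was highest in NICD1 replicate 1, at 8.08 against 6.99 and 6.86 (controls 4.96, 4.96 and 5.09), and so was the summed macrophage level, at 11.66 against 10.77 and 10.71. This match over 3 arrays is a description, and what part of the rise of Cybb goes with macrophages was not tested.

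**Figure D4:**
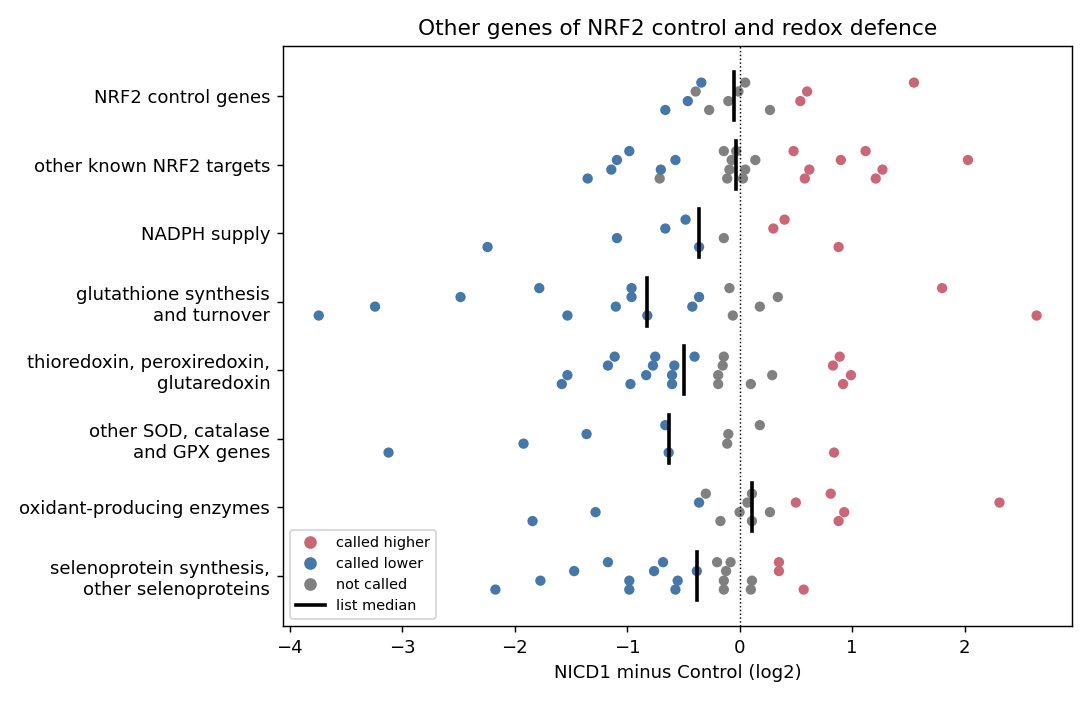
Difference NICD1 minus control (log2) of every measured gene of the 8 lists, 1 point a gene, red called higher, blue called lower and grey not called; black bars are list medians. Medians lie from -0.82 for glutathione genes to 0.11 for oxidant-producing enzymes.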

How the data were processed

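Total RNA of whole kidney was hybridised to 1 Affymetrix array per sample. The authors normalized raw files with RMA16 in GeneSpring, per the labels' protocols, and deposited log2 values per probe set. The deposited arrays did not share 1 distribution: their medians were 4.93 to 4.99 in controls and 5.03 to 5.11 in NICD1, so scaling was varied. The GeneSpring version, scan dates and detection calls are not given in the sources used here. Gene names came from the platform annotation. Of 34760 probe sets, 6573 in the control range were left out, and each gene took its brightest single-symbol probe set. Differences between groups were fitted by lmFit and eBayes of limma 3.58.1 (R 4.3.3) without covariates, and p-values were adjusted by Benjamini-Hochberg over 19937 genes. The procedure was tested on simulated data of 19937 genes, in which 67, 67 and 66 genes were changed by 0.5, 1 and 2 log2. It recovered 25.4%, 85.1% and 98.5% of them, with 3 false calls among 142. Changes of 0.5 log2 or less were thus mostly missed. Far fewer genes were changed there than were called in the data, so these shares may not carry over. Precision is limited by 3 arrays per group. Members, lists and tests were chosen with earlier results of these data known. Up to 4 genes of each list were named by lowest p. Keap1, Hmox1, Gss, Gsr, Slc3a2, Mgst1, Txn1, Sod1, Gpx8, Pgd, H6pd, Idh1, Idh2, Prdx2, Heyl, Cbr3, Akr1b8, Ptgr1, Selenoh, Lrp8, the tissue markers named and the pairs of members were picked after their values were seen. List genes without a single-symbol probe set were not analysed here. The 16 alternatives covered probe set choice, scaling, a filter on dim genes, variance model, array weights, a replicate block, thresholds and leaving out each array.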

Additional observations from a re-analysis of the deposited data

How the results depend on the processing

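Under 16 alternatives the 10 members gave 160 values, of which 136 kept direction and side of the threshold, 12 lost their call, 6 gained one and 6 turned sign. Each member had a single probe set, so the settings on probe set choice could not change its values. The filter, variance model, block and threshold settings left the differences as they were and could not turn a sign. These counts therefore overstate how far the results were challenged. Gpx1, Gpx3 and Sod2 stayed called lower in all 16. Gclm, Sod3 and Nfe2l2 lost their calls only when the difference was tested against a minimum change of 2-fold (limma treat) instead of 0, which left 0 members higher, 3 lower, and 374 genes higher and 507 lower. Members called higher fell to 1 under median centring, the replicate block and an adjusted p threshold of 0.01, and ranged from 1 to 3 when single arrays were left out, the gene lost being Txnrd1. The replicate numbers did not pair the arrays (correlations of same-numbered deviations -0.07, -0.01 and -0.07). The block gave 3219 genes higher and 2762 lower and ended no member's call but that of Txnrd1 (0.41, limma adjusted p = 0.0539). Nqo1 turned from -0.012 to 0.26 with array weights, and lay between -0.48 and 0.24 when single arrays were left out. Gclc turned to 0.16 under quantile normalization. That setting also shifted other members upward: Gclm to -1.03, Gpx1 to -1.5, Gpx3 to -2.09, Sod2 to -1.24, Txnrd1 to 0.58 and Nfe2l2 to 1.54. Sod3 stayed at -1.38, and Nqo1 and Srxn1 moved little, to -0.0042 and 0.39. The cause was not tested. Median centring moved the median of all genes from 0.015 to -0.108 and the calls to 2594 higher and 3990 lower, so that 39.4% of calls were higher, against 54.4% of 3551 and 2978.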
